A study of Mus musculus with 15 samples.

Results

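The genes described are 10 chaperones and stress sensors of the endoplasmic reticulum (ER), measured in sorted mouse XCR1+ dendritic cells. They are the chaperones and folding factors Hspa5, Hsp90b1, Pdia4, Pdia6, Creld2 and Sdf2l1, the sensor Ern1, and the transcription factors Xbp1, Ddit3 and Atf4. A member was found through probe sets whose platform annotation gave its symbol and no other, and where a gene had several, the brightest on average over the 15 arrays stood for it. All 10 were found among the 18194 genes measured in this way, and all 10 were among the 13629 genes tested, that is, above 4.39 on the log2 scale in at least 3 arrays. The cells were measured on 15 Affymetrix whole-genome mouse arrays in 5 groups of 3, and the question behind them was how maturation in the thymus compares with maturation in the spleen. Immature cells were sorted as CD11c+ CD317- CD172a- CD117+ CCR7-, and mature cells as CD11c+ CD317- CD172a- CD117- CCR7+. Thymus CCR7-, thymus CCR7+, spleen CCR7- and spleen CCR7+ cells came from untreated mice, and a further spleen CCR7+ group from mice injected intraperitoneally with 10 µg polyI:C, a synthetic double-stranded RNA, 18 h before. XCR1 is part of the sample names and not of the gates, the labels used here give neither strain nor age, and they do not say whether replicates were separate mice, pools or sorts. Adjusted p-values therefore measure the spread between these samples, which may be technical.

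Secreted and membrane proteins fold in the ER with the help of chaperones such as BiP (Hspa5) and GRP94 (Hsp90b1) and of disulfide isomerases. When unfolded proteins accumulate, membrane sensors start the unfolded protein response. The sensor IRE1 (Ern1) splices Xbp1 mRNA into the form that encodes an active transcription factor, ATF6 is cleaved into another, and PERK slows translation and raises ATF4, which induces CHOP (Ddit3). XCR1+ dendritic cells are known for an IRE1 branch that is active without added stress. The arrays used here do not separate spliced from unspliced Xbp1 mRNA, so IRE1 activity was not measured.

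A classical target sequence of this response is the ER stress response element, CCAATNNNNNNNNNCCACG, to which NF-Y and ATF6 or XBP1 are known to bind. The group means of the chaperones fell together with maturation. Promoters, from 250 bases before to 50 after the annotated start, were therefore read for the 10 genes on both strands in RefSeq (GRCm38.p6). All 10 genes had a promoter there. The exact element was found in 4 of them, Hspa5, Hsp90b1, Pdia6 and Creld2, and in 39 of all 32851 promoters (0.119%). Their upstream sequences follow, 5′ to 3′ in the direction of the gene and ending at the base before the start, with the element in capitals.
Hspa5, chr2:34771940-34772089, plus strand: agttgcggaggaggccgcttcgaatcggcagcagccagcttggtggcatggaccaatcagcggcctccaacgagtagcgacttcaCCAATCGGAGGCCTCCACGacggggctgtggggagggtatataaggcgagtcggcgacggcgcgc
Hsp90b1, chr10:86705445-86705664, minus strand: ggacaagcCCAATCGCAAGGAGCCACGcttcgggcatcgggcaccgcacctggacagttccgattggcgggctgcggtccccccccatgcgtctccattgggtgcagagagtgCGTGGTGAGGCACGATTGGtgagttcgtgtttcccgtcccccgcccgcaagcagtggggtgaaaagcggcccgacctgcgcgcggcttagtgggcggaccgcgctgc
Pdia6, chr12:17266439-17266588, plus strand: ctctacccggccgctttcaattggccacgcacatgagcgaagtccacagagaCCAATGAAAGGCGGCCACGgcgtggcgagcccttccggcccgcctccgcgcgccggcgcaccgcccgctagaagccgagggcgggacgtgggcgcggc
Creld2, chr15:88819496-88819645, plus strand: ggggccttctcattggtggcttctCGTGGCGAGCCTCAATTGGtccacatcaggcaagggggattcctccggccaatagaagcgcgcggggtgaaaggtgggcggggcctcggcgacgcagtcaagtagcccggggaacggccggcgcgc
In Hspa5 the element lay at positions -65 to -47 counted from the start, and in Pdia6 at -98 to -80, both in the direction of the gene. Creld2 carried it in reverse, at -126 to -108. Hsp90b1 held 2 copies, a forward copy at -212 to -194 and a reverse copy at -107 to -89. The shorter CCACG core, which is also the end of the element, occurred in 8 of the 10 promoters and in 32.769% of all promoters. The element II (ATTGGNCCACG, in 0.037% of all promoters), TGACGTGG (0.676%) and the C/EBP-ATF core TGATGNAA (3.969%) matched in none of the 10. These matches describe letters and were not tested for binding. Among the other ER folding genes listed for comparison, 17 of 20 had a promoter in RefSeq and 4 of these (Calr, Canx, Dnajc3 and Ero1b) held the exact element.

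The arrays were checked first. Array medians lay between 4.855 and 4.995. Of 8 markers of mature dendritic cells tested, 7 were higher in CCR7+ cells of the thymus and all 8 in both CCR7+ groups of the spleen. Of 11 XCR1+ dendritic cell markers, 10 were lower in CCR7+ cells of thymus, 10 in those of untreated spleen and 9 after polyI:C. In thymus and in untreated spleen 1 of them, Batf3, was higher (log2 fold changes 0.93 and 0.81), and 0 were higher after polyI:C. Of all genes 20.4%, 24.1% and 28.0% were lower and 16.8%, 12.3% and 18.4% higher in thymus, untreated spleen and after polyI:C. The mean of the XCR1+ list per array was 7.81 to 8.03 in thymus CCR7+ cells against 11.44 to 11.60 in thymus CCR7- cells. Whether CCR7- and CCR7+ cells belong to one cell type was not tested. Array replicate 1 of untreated spleen CCR7+ cells stood apart, with a 3′ minus 5′ difference of 5.22 for Gapdh and 2.09 for Actb against at most 4.02 and 1.60 in the other arrays, and with the lowest array weight (0.308). Without it, 7 of the 10 genes fell and 1 rose with maturation in the untreated spleen in place of 8 and 1. The pathway counts that changed without it are given beside each list, and marker counts were not recomputed. The shares of all genes in the fit without this array are not given, so those counts have no background beside them. The spleen titles carry a set label that the thymus titles lack, so that tissue and any such set cannot be told apart. Fewer cells of a type and less RNA per cell cannot be told apart in these bulk samples.

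Expression of the ER chaperones fell with maturation in the thymus. All 6 chaperones and folding factors were lower in CCR7+ than in CCR7- cells, from 2.08-fold for Hspa5 to 8.48-fold for Creld2, and so were Xbp1 and Ern1, whereas Ddit3 was higher and Atf4 was not called. In all, 8 of the 10 genes fell and 1 rose at an adjusted p under 0.05 (limma, Benjamini-Hochberg over all genes tested), against 20.4% of all genes lower and 16.8% higher. The median log2 fold change of the 10 was -1.23, beside -0.06 over all genes tested, and that of the 6 chaperones was -2.26. The same 6 chaperones, Xbp1 and Ern1 fell and Ddit3 rose in the untreated spleen, where 24.1% of all genes were lower and 12.3% higher. The medians there were -1.20 for the 10 and -0.03 for all genes. After polyI:C, compared with the same spleen CCR7- arrays, the count was again 8 lower and 1 higher, against 28.0% and 18.4% of all genes, with medians of -1.20 and 0.02. The 2 splenic comparisons share their CCR7- arrays and are not independent of each other.

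**Figure D1:**
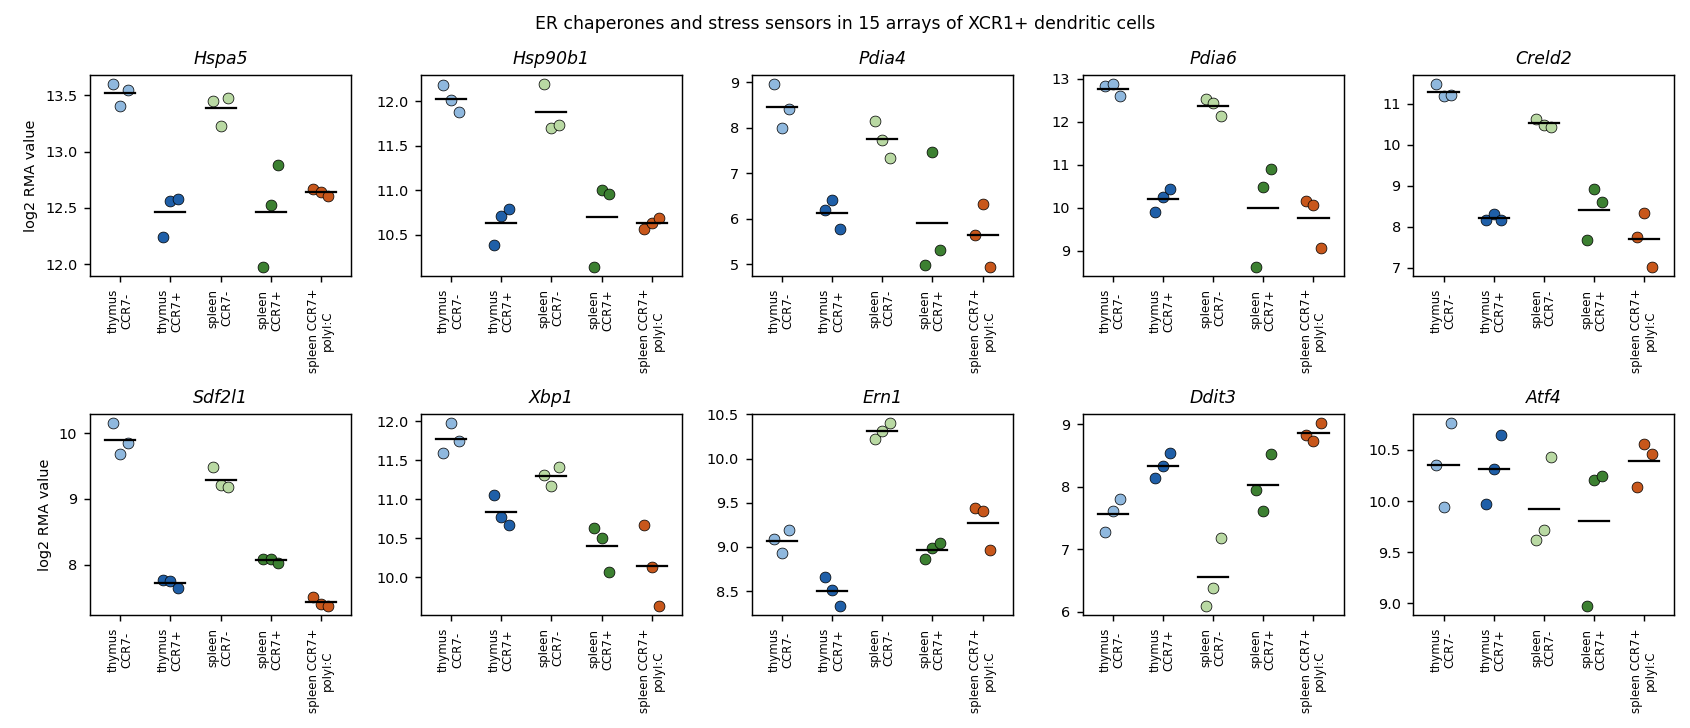
Log2 RMA values (y axis, own scale for each gene) of the 10 genes in 15 arrays, 3 for each of 5 groups (x axis); points are arrays and bars group means. The 6 chaperones and Xbp1 sit higher in both CCR7- groups than in the CCR7+ groups except for 1 spleen CCR7+ array of Pdia4, Ern1 is highest in spleen CCR7- cells, and Ddit3 is highest after polyI:C.

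Hspa5, the Hsp70 chaperone of the ER lumen and a regulator of the stress sensors, gave log2 values of 13.60, 13.41 and 13.55 in thymus CCR7- cells and of 12.24, 12.56 and 12.58 in thymus CCR7+ cells. In the spleen it gave 13.45, 13.23 and 13.48 in CCR7- cells, 11.98, 12.53 and 12.88 in untreated CCR7+ cells and 12.67, 12.64 and 12.61 after polyI:C. Every CCR7- array lay above every CCR7+ array, and the CCR7+ groups overlapped one another except for thymus and polyI:C spleen. The log2 fold changes were -1.06 in thymus (standard error 0.19, adjusted p = 0.000451), -0.93 in untreated spleen (adjusted p = 0.00154) and -0.75 after polyI:C (adjusted p = 0.0045; limma). The 3 probe sets of Hspa5 disagreed. The second gave -1.70, -1.25 and -1.34 in the same order, while the third gave -0.51, 0.09 and 0.22.

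Hsp90b1 encodes GRP94, the Hsp90 of the ER, which folds Toll-like receptors and integrins. Its log2 values ran from 11.88 to 12.18 in thymus CCR7- and from 10.38 to 10.79 in thymus CCR7+ cells, and in the spleen from 11.70 to 12.19 in CCR7- cells, from 10.14 to 11.01 in untreated CCR7+ cells and from 10.57 to 10.69 after polyI:C. No CCR7+ array reached a CCR7- array of its tissue. The log2 fold changes were -1.39 (standard error 0.22, adjusted p = 0.000134), -1.17 (adjusted p = 0.000731) and -1.25 (adjusted p = 0.000252; limma). Its other probe set gave -2.17, -0.99 and -1.81.

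Pdia6 and Pdia4 are protein disulfide isomerases. Pdia6 gave 12.83, 12.89 and 12.60 in thymus CCR7- cells, 9.90, 10.25 and 10.44 in thymus CCR7+ cells and 12.54, 12.44 and 12.13 in spleen CCR7- cells. Its untreated spleen CCR7+ arrays were at 8.63, 10.49 and 10.91 and the polyI:C arrays at 10.15, 10.06 and 9.06. The lowest of these 15 values was that of the untreated spleen CCR7+ array that stood apart in RNA quality, and every CCR7+ array was still below every CCR7- array. Pdia6 fell 5.95-fold in thymus (log2 fold change -2.57, adjusted p = 0.000345), 5.14-fold in untreated spleen (-2.36, adjusted p = 0.000856) and 6.11-fold after polyI:C (-2.61, adjusted p = 0.000218; limma). Without the array that stood apart, the fall in untreated spleen was 3.19-fold (-1.67, adjusted p = 0.000613; limma). With the mean of its 2 probe sets, of which the second averaged 4.77, the splenic values were -1.52 and -1.43.

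Pdia4 was at 8.97, 8.002 and 8.42 in thymus CCR7- cells and at 6.19, 6.41 and 5.78 in thymus CCR7+ cells. In the spleen it was at 8.16, 7.73 and 7.35 in CCR7- cells, at 4.99, 7.46 and 5.30 in untreated CCR7+ cells and at 5.64, 6.33 and 4.94 after polyI:C. The second untreated spleen CCR7+ array lay within the range of the CCR7- arrays, so that these groups overlapped, while the thymic groups did not. The log2 fold changes were -2.34 in thymus (standard error 0.52, adjusted p = 0.00257), -1.83 in untreated spleen (adjusted p = 0.0134) and -2.11 after polyI:C (adjusted p = 0.00403; limma). The call in untreated spleen ended without spleen CCR7- replicate 1 (-1.62), without spleen CCR7+ replicate 1 (-1.36) or 3 (-1.52), and when only the arrays of both splenic groups were fitted (-1.83, adjusted p = 0.0557). Without spleen CCR7+ replicate 2 the fall was 6.06-fold (-2.60) in place of 3.55-fold. With the mean of both probe sets, of which the second was dim (mean 4.30), the 3 values were -1.33, -0.88 and -1.03.

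Creld2, an ER-resident protein induced by ER stress, had the largest thymic fall of the 10. It gave 11.49, 11.19 and 11.21 in thymus CCR7- cells and 8.15, 8.32 and 8.16 in thymus CCR7+ cells. In the spleen it gave 10.63, 10.49 and 10.44 in CCR7- cells, 7.67, 8.93 and 8.59 in untreated CCR7+ cells and 7.75, 8.35 and 7.02 after polyI:C. All 6 CCR7- values lay above 10.4, and the highest CCR7+ value was 8.93. The falls were 8.48-fold in thymus (log2 fold change -3.08, standard error 0.31, adjusted p = 2.63e-06), 4.35-fold in untreated spleen (-2.12, adjusted p = 0.000131) and 7.03-fold after polyI:C (-2.81, adjusted p = 4.23e-06; limma).

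Sdf2l1, a cofactor of BiP and its J-domain partner, had the smallest standard error of the 10 in the fit (0.14). It gave 10.16, 9.69 and 9.84 in thymus CCR7- cells, 9.48, 9.21 and 9.18 in spleen CCR7- cells and 8.08, 8.08 and 8.02 in untreated spleen CCR7+ cells. The values were 7.77, 7.75 and 7.65 in thymus CCR7+ cells and 7.51, 7.40 and 7.36 after polyI:C. In this order from high to low no group overlapped its neighbour. The log2 fold changes were -2.17 in thymus (standard error 0.14, adjusted p = 3.15e-08), -1.23 in untreated spleen (adjusted p = 1.29e-05) and -1.87 after polyI:C (adjusted p = 8.87e-08; limma). Sdf2l1 and Creld2 have 1 probe set each.

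**Figure D2:**
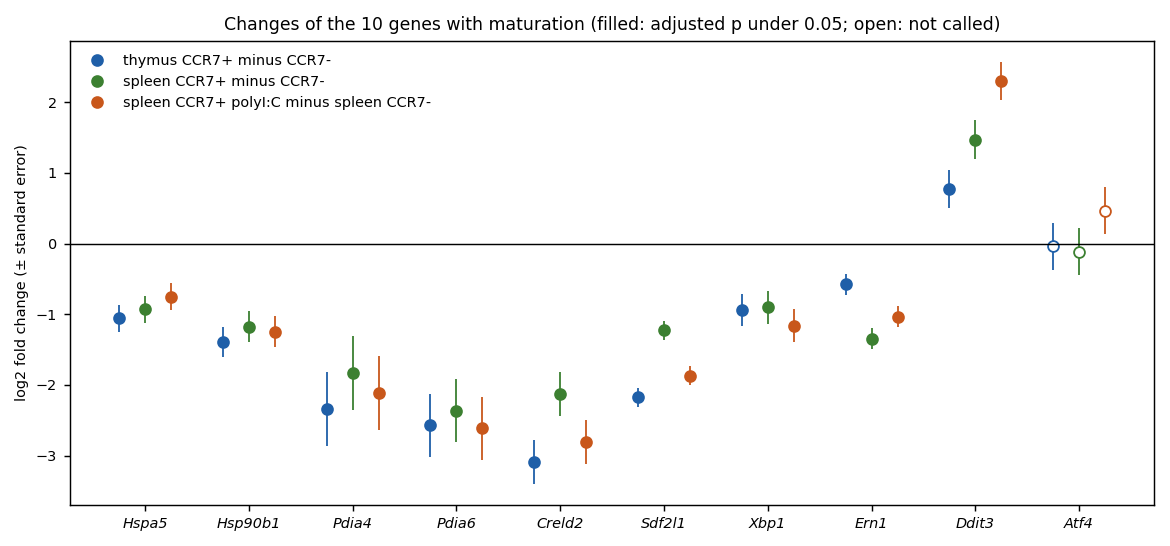
Log2 fold changes (y axis) of the 10 genes (x axis) in the 3 maturation comparisons, with standard errors from the model; filled points have an adjusted p under 0.05. The 6 chaperones, Xbp1 and Ern1 lie below 0 and Ddit3 above 0 in each comparison, from -3.08 for Creld2 in thymus to 2.30 for Ddit3 after polyI:C.

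Xbp1, the transcription factor downstream of IRE1, gave 11.59, 11.98 and 11.75 in thymus CCR7- cells and 11.05, 10.78 and 10.67 in thymus CCR7+ cells. In the spleen it gave 11.32, 11.17 and 11.42 in CCR7- cells, 10.64, 10.50 and 10.06 in untreated CCR7+ cells and 10.67, 10.13 and 9.63 after polyI:C. From thymus CCR7- through spleen CCR7- and thymus CCR7+ to untreated spleen CCR7+ cells no group overlapped the next, while the untreated and polyI:C spleen groups did overlap. The falls were smaller than those of Pdia6 or Creld2, with log2 fold changes of -0.94 (standard error 0.23, adjusted p = 0.00471), -0.90 (adjusted p = 0.00658) and -1.16 (adjusted p = 0.000755; limma). All 4 probe sets of Xbp1 had negative changes in the 3 comparisons, from -0.56 to -1.73. Without the _a_at and _s_at probe sets the dimmest one remained (mean 5.74), and the thymic value (-0.56, adjusted p = 0.115) and the value in untreated spleen (-0.68, adjusted p = 0.0528) were not called.

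Ern1, which encodes the sensor itself, differed most between the tissues before maturation. It gave 10.22, 10.31 and 10.40 in spleen CCR7- cells against 9.09, 8.93 and 9.19 in thymus CCR7- cells. Thymus CCR7+ cells gave 8.66, 8.51 and 8.33, untreated spleen CCR7+ cells 8.86, 8.98 and 9.05, and those from treated mice 9.44, 9.41 and 8.97. Spleen CCR7- arrays were the highest and thymus CCR7+ arrays the lowest of all, without overlap with any other group. Ern1 fell by 0.57 on the log2 scale in thymus (standard error 0.15, adjusted p = 0.00715), fell by 1.35 in untreated spleen (adjusted p = 1.17e-05) and fell by 1.04 after polyI:C (adjusted p = 4.88e-05; limma). Its other 4 probe sets were dimmer (means from 4.34 to 6.56) and gave smaller values, with one of them at 0.11, -0.12 and -0.72. With the mean of the 5 probe sets the changes were -0.16, which was not called (adjusted p = 0.298), -0.38 and -0.36.

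Ddit3 encodes CHOP, the transcription factor of the late, death-promoting arm of the response, and it moved against the chaperones. It gave 7.27, 7.62 and 7.80 in thymus CCR7- cells and 8.14, 8.33 and 8.53 in thymus CCR7+ cells. In the spleen it gave 6.09, 6.39 and 7.19 in CCR7- cells, 7.95, 7.61 and 8.52 in untreated CCR7+ cells and 8.82, 8.72 and 9.02 after polyI:C. The polyI:C arrays were the highest and the spleen CCR7- arrays the lowest, neither overlapping another group, while thymus CCR7+ and untreated spleen CCR7+ cells overlapped. The rises were 1.71-fold in thymus (log2 fold change 0.77, standard error 0.27, adjusted p = 0.0365), 2.78-fold in untreated spleen (1.47, adjusted p = 0.00071) and 4.93-fold after polyI:C (2.30, adjusted p = 7.38e-06; limma). The thymic call ended without thymus CCR7- replicate 1 (0.62) or 2 (0.80), without thymus CCR7+ replicate 2 (0.78) or 3 (0.67), and with quantile normalisation repeated (0.78, adjusted p = 0.0539). The second probe set averaged 6.38 against 7.87 for the first and gave -0.24, 0.42 and -0.52, so that the direction depended on the probe set in thymus and after polyI:C. With the mean of both, the changes were 0.27 (not called, adjusted p = 0.256), 0.94 and 0.89.

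Atf4, the transcription factor whose translation rises when eIF2 is phosphorylated, averaged 10.35 ± 0.41 (SD, n = 3) in thymus CCR7- cells, 10.31 ± 0.34 in thymus CCR7+ cells, 9.92 ± 0.45 in spleen CCR7- cells, 9.81 ± 0.72 in untreated spleen CCR7+ cells and 10.39 ± 0.22 after polyI:C. All groups overlapped. The log2 fold changes were -0.041 in thymus (95% interval -0.75 to 0.67), -0.12 in untreated spleen (-0.83 to 0.60) and 0.47 after polyI:C (-0.25 to 1.18). None was called (limma, adjusted p = 0.948, 0.823 and 0.273), and the intervals leave room for changes of either sign. The other Atf4 probe set above the filter gave 0.17, 0.80 and 1.26, and the last of these was called (adjusted p = 0.00606) where that probe set, which has the larger variance, stood for the gene. The change after polyI:C was also called with the mean of the probe sets (0.64, adjusted p = 0.0191).

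**Figure D3:**
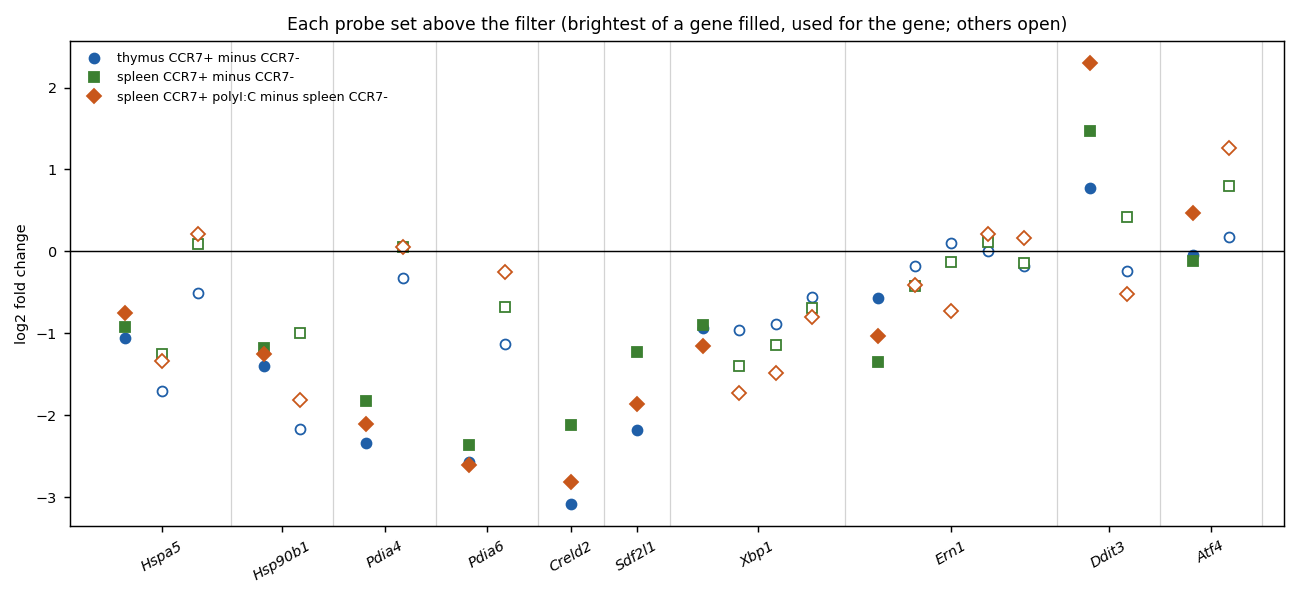
Log2 fold changes (y axis) of every probe set of the 10 genes above the filter (x axis, by gene) in the 3 maturation comparisons; the brightest probe set of each gene, used for the gene, is filled. All probe sets of Xbp1 and Hsp90b1 lie below 0, while those of Hspa5, Pdia4, Ern1, Ddit3 and Atf4 include values on both sides of 0.

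The tissues differed in a few of these genes before maturation. In CCR7- cells Sdf2l1 was higher in thymus by 0.61 on the log2 scale (adjusted p = 0.0117) and Ddit3 by 1.01 (adjusted p = 0.032), and Ern1 was 2.36-fold lower (log2 difference -1.24, adjusted p = 7.92e-05; limma). These were 2 genes higher and 1 lower of 10, against 4.92% and 3.24% of all genes. For these 3 genes the thymic and splenic arrays did not overlap, and neither did those of Pdia6, Creld2 and Xbp1, which were not called. The share of all genes without overlap was not computed. The call for Sdf2l1 ended without thymus CCR7- replicate 1 (0.48) and without spleen CCR7- replicate 2 (0.57) or 3 (0.55), and when only the CCR7- arrays were fitted (0.61, adjusted p = 0.0519). The call for Ddit3 ended without thymus CCR7- replicate 2 (0.98) or 3 (0.89), without spleen CCR7- replicate 1 (0.78) or 2 (0.93), with the mean of its probe sets (0.34), with quantile normalisation repeated (1.01, adjusted p = 0.0545) and when only the CCR7- arrays were fitted (1.01, adjusted p = 0.0538). The Ern1 call held in the 26 alternatives tried, with -0.52 as the smallest difference, for the mean of its probe sets. Creld2 was 0.78 higher in thymus and was not called (95% interval 0.11 to 1.45, adjusted p = 0.178), but was called with array weights (0.76, adjusted p = 0.0292) and when only the CCR7- arrays were fitted (0.78, adjusted p = 0.00935).

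Among mature cells of untreated mice, none of the 10 genes was called between thymus and spleen (limma), where 8.71% of all genes were higher and 3.47% lower in thymus. At an unadjusted p under 0.05 there were 2, Ern1 and Sdf2l1, and the share of all genes at that threshold was not computed. Ern1 was lower in thymus (log2 difference -0.46, adjusted p = 0.0584) and Sdf2l1 was lower too (-0.34, adjusted p = 0.133), both without overlap of the arrays. The arrays of Xbp1 (0.43, not called) did not overlap either. Repeated quantile normalisation called both, at -0.58 and -0.46, and Ern1 was also called without polyI:C replicate 3 (-0.46, adjusted p = 0.035), which is not part of the comparison. Against polyI:C spleen, mature thymic cells had higher Xbp1 (0.69, adjusted p = 0.0418) and lower Ern1 (-0.78, adjusted p = 0.00177), where 16.7% of all genes were higher and 7.40% lower in thymus. The Xbp1 call ended in 12 of 26 alternatives, among them without polyI:C replicate 3 (0.43), without polyI:C replicate 2 (0.69) and without thymus CCR7+ replicate 1 (0.58), 2 (0.72) or 3 (0.77). It also ended without arrays outside the comparison, namely thymus CCR7- replicate 3 and each spleen CCR7- replicate, at an unchanged 0.69. The Ern1 call ended with the mean of its probe sets (-0.33, adjusted p = 0.0503).

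The change with maturation differed between the tissues for Sdf2l1, which fell by 2.17 in thymus and fell by 1.23 in untreated spleen. The difference, thymus minus spleen, was -0.95 (standard error 0.19, adjusted p = 0.0148; limma), and the call held in the 26 alternatives. This was 1 of 10 genes with a more negative and none with a more positive change in thymus, beside 1.39% and 1.79% of all genes. Creld2 had a difference of similar size with a larger standard error (-0.96 with 0.44, 95% interval -1.91 to -0.02, adjusted p = 0.311). Ern1 pointed the other way, at 0.78 (95% interval 0.32 to 1.23, adjusted p = 0.0673), and was called without polyI:C replicate 3 (adjusted p = 0.0397). For Hspa5, Hsp90b1, Pdia4, Pdia6, Xbp1, Ddit3 and Atf4 the intervals of the difference included 0.

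**Figure D4:**
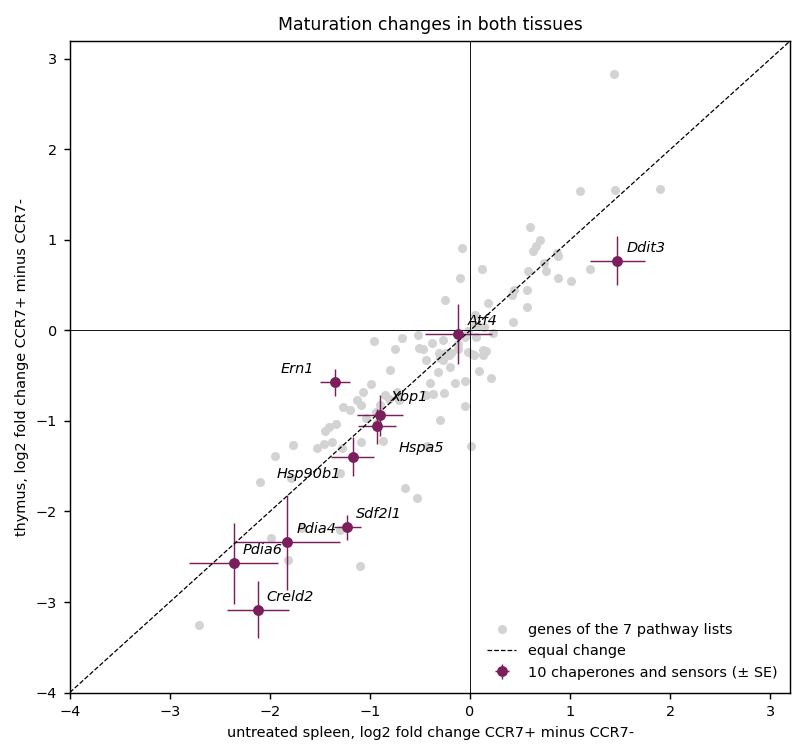
Log2 fold change with maturation in thymus (y axis) against untreated spleen (x axis) for the 10 genes, with standard errors, and for the genes of the 7 pathway lists (grey); the dashed line marks equal change. Sdf2l1 lies below the line (-2.17 in thymus, -1.23 in spleen) and Ern1 above it (-0.57 and -1.35).

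Between polyI:C and untreated mature spleen 2 of the 10 genes were called, 1 lower and 1 higher, which is near the shares over all genes. Sdf2l1 was lower after polyI:C by 1.56-fold (log2 fold change -0.64, adjusted p = 0.00488) and Ddit3 higher by 1.78-fold (0.83, adjusted p = 0.0471; limma), against 9.66% of all genes lower and 8.58% higher. The Sdf2l1 call held in the 26 alternatives. The Ddit3 call ended in 18 of the 26, with adjusted p-values up to 0.174 when 1 array was left out, among them without each polyI:C replicate (0.84, 0.89 and 0.75 for replicates 1, 2 and 3) and without untreated replicate 1 (0.79) or 2 (0.62). Its second probe set went the other way (-0.94), and with the mean of both the change was -0.055. Pdia6 (-0.25) and Creld2 (-0.69) were not called in the comparison of all arrays. Both were lower after polyI:C without the untreated array that stood apart in RNA quality, at -0.94 (adjusted p = 0.0359) and -1.06 (adjusted p = 0.017). Creld2 was also called without polyI:C replicate 2 (-1.01) and with array weights (-0.95). Hspa5 differed by 0.18 (95% interval -0.23 to 0.58) and Hsp90b1 by -0.073 (-0.54 to 0.39). Only CCR7+ cells of treated mice are among these arrays, so that maturation and treatment cannot be told apart in the comparison with untreated CCR7- cells.

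Across the 15 arrays the 6 chaperones ran together, with Pearson's r from 0.815 to 0.967 over their 15 pairs. Xbp1 correlated with them at 0.673 to 0.858, Ern1 at 0.405 to 0.571, Atf4 at -0.08 to 0.278 and Ddit3 at -0.766 to -0.603. These values describe arrays that share their groups and normalisation, and they include the differences between group means. For deviations from the group means, r between the chaperones ran from 0.031 (Pdia6 and Sdf2l1) to 0.813 (Pdia6 and Creld2). For Xbp1 with the chaperones it ran from -0.428 (Hspa5) to 0.144 (Pdia4). The genes most like Hspa5 over the 15 arrays were Dus1l (r = 0.957), Ahr (0.954), Fkbp4 (0.953), Elac2 (0.951) and Dctn5 (0.948), and those most like Xbp1 were C1qbp (0.957), Rpgrip1 (0.955), Aimp2 (0.954), Cisd1 (0.951) and Dhodh (0.951).

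Other ER folding genes showed more falls than rises. Of 20 tested, 11 fell and 1 rose in thymus, 11 fell and 2 rose in untreated spleen, and 9 fell and 2 rose after polyI:C, with medians of -0.97, -0.73 and -0.56. Of all genes 20.4%, 24.1% and 28.0% fell and 16.8%, 12.3% and 18.4% rose in these comparisons. Fkbp2, an ER prolyl isomerase, fell by 2.60 in thymus (limma, adjusted p = 1.06e-05). Hyou1, the nucleotide exchange factor of BiP, changed by -2.20 there (limma, adjusted p = 5.68e-06). Fkbp2 and Hyou1 were also called lower in untreated spleen (-1.10 and -1.30) and after polyI:C (-1.33 and -1.70). The disulfide isomerase Pdia5 fell in all 3 comparisons (-2.53 in thymus, -1.82 in untreated spleen and -3.16 after polyI:C), and was lower after polyI:C than in untreated mature spleen (log2 fold change -1.35, adjusted p = 0.00113; limma). P4hb, the archetypal disulfide isomerase, changed by -1.39 in thymus, -1.95 in untreated spleen and -1.69 after polyI:C. Txndc5 of the same family changed by -1.63, -1.79 and -1.74 in the same order. Dnajc10, a disulfide reductase that works with BiP, rose by 0.85, 0.86 and 0.67. Cnpy2 changed little in untreated cells (-0.10 and -0.27, not called) and fell by 1.83 after polyI:C. Against untreated mature spleen 2 genes of the list were lower and 1 higher after polyI:C, where 9.66% of all genes were lower and 8.58% higher. Without the untreated array that stood apart, 10 of the 20 fell and 1 rose in untreated spleen.

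**Figure D5:**
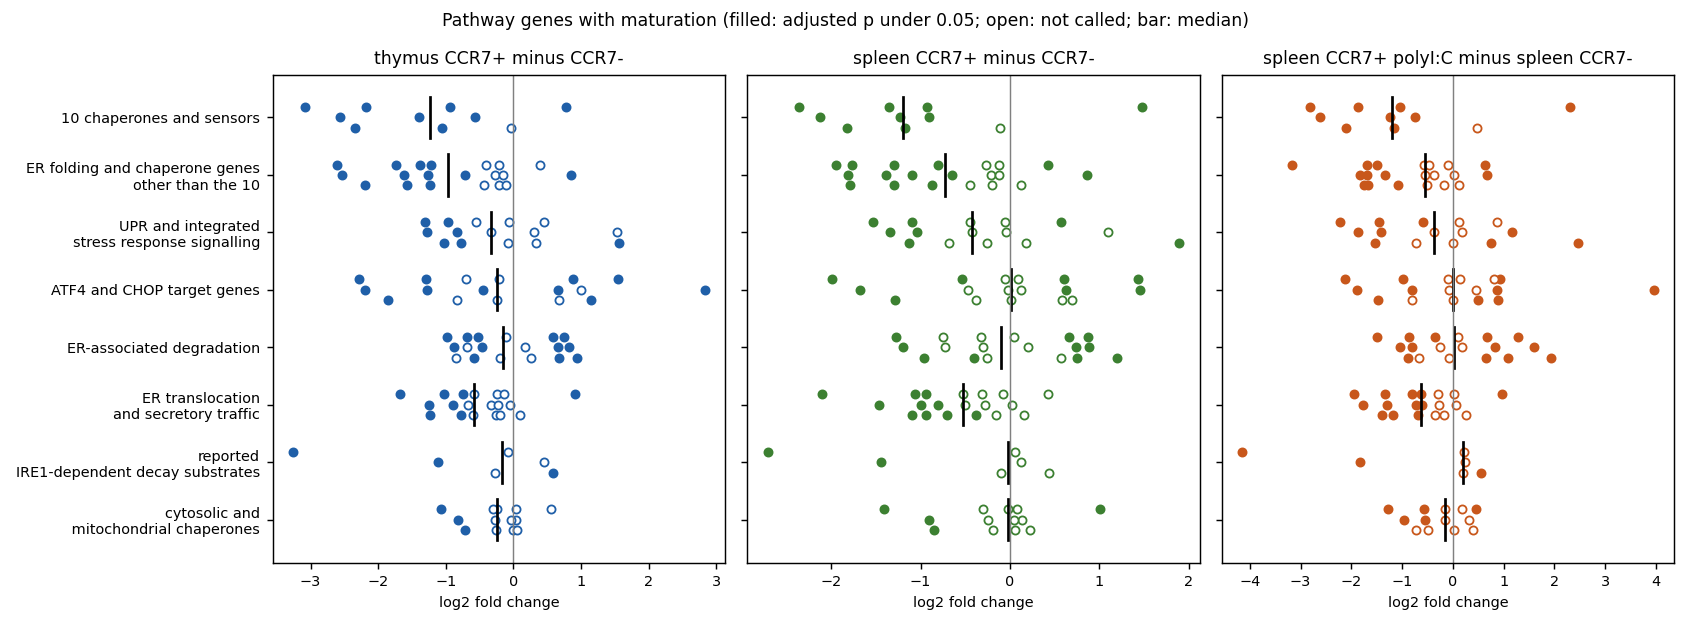
Log2 fold changes (x axis) in the 3 maturation comparisons for the 10 genes and the 7 pathway lists (y axis), each point a gene and each bar the median; filled points have an adjusted p under 0.05. The ER folding list has its median at -0.97 in thymus, -0.73 in untreated spleen and -0.56 after polyI:C, while the medians of the ER-associated degradation list lie between -0.16 and 0.01.

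Genes of the stress signalling pathways fell more often than they rose where they were called. Of 15 tested, 6 fell and 1 rose in thymus, 5 fell and 2 rose in untreated spleen, and 6 fell and 3 rose after polyI:C. Their medians were -0.33, -0.43 and -0.36. Over all genes the shares were 20.4%, 24.1% and 28.0% lower and 16.8%, 12.3% and 18.4% higher. Traf2, the adaptor that IRE1 recruits, rose by 1.56, 1.89 and 2.46 in thymus, untreated spleen and after polyI:C. Creb3l2, an ER-anchored transcription factor, changed by -1.30, -1.53 and -2.23 in the same order. Mbtps2, a protease that releases ATF6 from the membrane, changed by -0.77, -1.13 and -1.87. Atf6 itself changed by -0.97, -1.04 and -1.46 and was called in each. Eif2ak3, which encodes PERK, was called after polyI:C (-1.41) and not in thymus (-0.09) or untreated spleen (-0.68). Eif2ak2 (PKR), the eIF2 kinase that senses double-stranded RNA, was 1.59 higher after polyI:C than in untreated mature spleen (adjusted p = 0.00767; limma). Without the untreated array that stood apart, 5 fell and 3 rose in untreated spleen.

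Reported targets of ATF4 and CHOP moved in both directions. Of 17 tested, 5 rose and 6 fell in thymus, 4 rose and 4 fell in untreated spleen, and 5 rose and 5 fell after polyI:C. The shares of all genes were 16.8%, 12.3% and 18.4% higher and 20.4%, 24.1% and 28.0% lower. Nupr1, a stress-induced nuclear protein, rose by 2.83, 1.43 and 3.96 and was 2.52 higher after polyI:C than in untreated mature spleen, from spleen CCR7- values (mean 4.22) below the filter value. The cystine transporter gene Slc7a11 rose by 1.55 in thymus, 1.45 in untreated spleen and 0.88 after polyI:C. Its CCR7- levels were also below the filter value (means 3.78 in thymus and 3.57 in spleen). Aldh18a1, an enzyme of proline synthesis, changed by -2.29 in thymus, -1.99 in untreated spleen and -0.99 after polyI:C. Psat1, of serine synthesis, changed by -2.19, -1.68 and -1.88 in the same order. The asparagine synthetase gene Asns changed by -1.85 in thymus, -0.53 in untreated spleen and -0.09 after polyI:C, where it was not called. Against untreated mature spleen 2 were higher and 2 lower after polyI:C, where 8.58% of all genes were higher and 9.66% lower. Without the untreated array that stood apart, 4 rose and 3 fell in untreated spleen, and 3 were higher and 2 lower after polyI:C.

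In ER-associated degradation, which removes misfolded proteins, 6 of 18 genes rose and 6 fell in thymus, 6 rose and 4 fell in untreated spleen, and 7 rose and 6 fell after polyI:C. Over all genes 16.8%, 12.3% and 18.4% rose and 20.4%, 24.1% and 28.0% fell. Edem1, a factor that marks glycoproteins for degradation, rose by 0.88 in untreated spleen and 1.59 after polyI:C and was 0.71 higher after polyI:C than in untreated mature spleen, while Edem2 changed by -1.49 after polyI:C. Syvn1, the ubiquitin ligase HRD1, changed by -0.99 in thymus and was not called in untreated spleen (-0.30) or after polyI:C (0.09). Ubxn4 rose by 0.67 in thymus, 1.20 in untreated spleen and 1.28 after polyI:C. Against untreated mature spleen 3 genes were higher and 1 lower, where 8.58% of all genes were higher and 9.66% lower. Without the untreated array that stood apart, 3 fell in untreated spleen in place of 4, and 2 were higher after polyI:C in place of 3.

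Genes of ER translocation and secretory traffic mostly fell where they were called. Of 19 tested, 7 fell and 1 rose in thymus, 10 fell in untreated spleen and none rose, and 11 fell and 1 rose after polyI:C. Of all genes 20.4%, 24.1% and 28.0% fell and 16.8%, 12.3% and 18.4% rose. The cargo receptor gene Lman1 changed by -1.67, -2.10 and -1.95, and the signal peptidase subunits Spcs3 by -1.25, -1.46 and -1.77 and Spcs2 by -1.23, -1.09 and -1.39. Sec24d, a subunit of the coat of export vesicles, rose by 0.98 after polyI:C and was 0.82 higher than in untreated mature spleen. Of 6 reported IRE1-dependent decay substrates, 2 fell in each comparison, Itgb2 (-3.25, -2.71 and -4.15) and Hgsnat (-1.11, -1.45 and -1.84), and 1, 0 and 1 rose. Of 13 chaperones of cytosol and mitochondria tested, 3, 3 and 4 fell and 0, 1 and 1 rose, where 20.4%, 24.1% and 28.0% of all genes fell, with Hspa9 at -1.07, -1.41 and -1.27 and Hspa4 at -0.71, -0.85 and -0.96. The call for Hgsnat in thymus ended in 4 of the 26 alternatives. Without the untreated array that stood apart, 1 decay substrate rose in untreated spleen in place of 0, and 2 cytosolic and mitochondrial chaperones fell in place of 3. Against untreated mature spleen, 3 traffic genes were then lower after polyI:C in place of 2, 1 decay substrate in place of 0 and 3 chaperones in place of 2, and 0 chaperones were higher in place of 1. With all arrays, 9.66% of all genes were lower and 8.58% higher in that comparison.

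Plasma cells are rich in these chaperones, so their markers were set beside the results. Of 8 plasma cell markers tested, 1 was higher and 1 lower in thymus CCR7+ than in CCR7- cells, 3 were higher and none lower in untreated spleen, and 2 were higher and 1 lower after polyI:C. The shares over all genes were 16.8%, 12.3% and 18.4% higher and 20.4%, 24.1% and 28.0% lower. Against untreated mature spleen 1 was higher and 4 lower after polyI:C, where 8.58% of all genes were higher and 9.66% lower. The mean of the list per array ran from 5.67 to 6.31 in thymus CCR7- cells, from 6.16 to 6.99 in thymus CCR7+ cells, from 5.16 to 6.95 in spleen CCR7- cells, from 6.73 to 7.64 in untreated spleen CCR7+ cells and from 5.11 to 6.15 after polyI:C. The marker Tnfrsf17 was below the filter value in all arrays. Of 8 T cell and thymocyte markers 7 were higher in thymus CCR7+ cells (7.25 to 8.22 against 5.43 to 6.34 in CCR7- cells). Between the tissues, 3 of these 8 were higher in thymus among CCR7- cells, 6 among mature untreated cells, and 6 higher and 1 lower against polyI:C spleen. Of 7 B cell markers 4 were higher in thymus CCR7+ cells and 5 in untreated spleen CCR7+ cells. After polyI:C none of the 7 was called against spleen CCR7- cells, and 2 were lower and 0 higher than in untreated mature spleen. Of 6 plasmacytoid dendritic cell markers 1, 2 and 1 rose and 1, 1 and 2 fell in thymus, untreated spleen and after polyI:C. Of 8 macrophage markers 4, 1 and 2 rose and 1, 0 and 1 fell, and of 4 cDC2 markers 1, 0 and 0 rose and 1, 0 and 1 fell. Of 5 thymic epithelial markers 1, 1 and 0 rose and 1, 0 and 1 fell, of 4 NK cell markers 0 rose and 1, 1 and 0 fell, of 3 neutrophil markers 1 rose after polyI:C, and of 4 erythroid markers none was called (limma; 0 at an unadjusted p under 0.05). The part of these markers in the results was not tested. Of 9 genes induced by tissue handling, 0 rose and 1, 2 and 5 fell in the 3 maturation comparisons, and their part was not tested either.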

How the data were processed

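RNA of sorted cells was amplified, labelled and hybridised to Affymetrix whole-genome mouse arrays. The deposited values are log2 signals that the authors made with RMA and affy, per the submitters' processing notes; which versions and which arrays together is not given in the sources used here. RMA gives no detection calls, and falls towards background are compressed. Of 45101 probe sets, 34958 carried 1 gene symbol, 932 several and 9211 none in the annotation used. Groups came from the labels. From these values, limma 3.58.1 in R 4.3.3 fitted 5 group means to all 15 arrays (eBayes, 10 residual and 4.01 prior degrees of freedom); 8 contrasts were tested over 13629 genes above the 40th percentile (4.39) in at least 3 arrays, with Benjamini-Hochberg adjusted p under 0.05 as the call. The number of arrays limits the precision. The fit was run on simulated data with independent arrays and few changed genes. Such data cannot show how it behaves with paired arrays or with as many changed genes as here.

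The members, the 7 pathway lists and the marker lists were chosen with earlier results of these data known. From each list up to 3 rising and 3 falling called genes with the largest change were eligible to be named in each of 4 comparisons. Of the resulting 115 pairs of gene and comparison, 78 kept their call in all alternatives that tested them. The text names mostly these. Other pathway values in the text are not part of the 115. Alternatives were other filters, probe set rules, normalisations, moderation, array weights, a fit of just the arrays compared, a block for the replicate number, and each array left out. Deviations of same-numbered arrays correlated at 0.524 to 0.574 between immature groups and at 0.420 to 0.590 between mature thymus and untreated spleen. The numbers thus seem to pair these arrays, as read from the data and not from the labels. In the other comparisons they did not all exceed 0.1, with -0.123 to -0.098 for maturation in untreated spleen. The reported fit left this pairing out. The block gave all groups the same replicate effect, and a fit that pairs only those groups was not run. The pathway counts without the untreated spleen CCR7+ array of low RNA quality were added after the data were seen.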

Additional observations from a re-analysis of the deposited data

Results flagged for a closer look

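Sdf2l1 changed differently with maturation in thymus and spleen. Thymus minus spleen was -0.95 on the log2 scale (standard error 0.19, adjusted p = 0.0148; limma), from changes of -2.17 in thymus and -1.23 in untreated spleen, where it was tested as the difference between the changes. Each thymus CCR7- array (9.69 to 10.16) lay above each spleen CCR7- array (9.18 to 9.48), and each thymus CCR7+ array (7.65 to 7.77) below each untreated spleen CCR7+ array (8.02 to 8.08).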

How the results depend on the processing

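Of 2064 values of the 10 genes (80 pairs of gene and comparison, 26 alternatives), 1996 kept their side of the threshold, of which 1932 also kept their sign and 64, called in neither fit, did not. A further 54 lost a call, 13 gained one and 1 reversed: Ddit3 after polyI:C against untreated mature spleen, at -0.055 with the mean of probe sets. The causes were not tested. Calls in the maturation comparisons numbered 8 to 9 in thymus, 8 to 9 in untreated spleen and 9 to 9 after polyI:C when single arrays were left out, and 6 to 9, 6 to 9 and 7 to 10 otherwise; Hspa5 and Hsp90b1 have only probe sets ending in _a_at, _s_at or _x_at and were not tested where these were left out. For polyI:C against untreated mature spleen (2 calls) the count was 1 with no filter, the mean of probe sets, repeated quantile normalisation, trend and robust moderation and the compared groups only, and 1 to 3 with single arrays left out. Between immature cells (3 calls) it was 1 to 3, and for the difference between tissues (1 call) 1 to 2, with single arrays left out. Between mature thymus and untreated spleen (0 calls) it was 2 with repeated quantile normalisation and 0 to 1 with single arrays left out. Between mature thymus and polyI:C spleen (2 calls) it was 1 with the mean of probe sets, with _s_at, _x_at and _a_at left out and with repeated quantile normalisation, and 1 to 2 with single arrays left out. The fit with the replicate block kept the counts at 9, 9 and 9 for maturation, 2 for polyI:C against untreated, and 3, 0, 2 and 1 between tissues, and changed no call. RMA values give no depth and no detection calls, so small changes of dim probe sets cannot be judged.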

Other observations

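Atf4 was not called between the tissues. Ddit3, which encodes CHOP, was called higher in thymus among CCR7- cells (limma, 1.01, adjusted p = 0.032) and not among mature cells. That call ended in 7 of the 26 alternatives. Some reported ATF4 and CHOP target genes were called between the tissues as well. Of 17 tested, 5 were higher and 0 lower in thymus than in spleen among CCR7- cells, 6 and 0 among mature cells of untreated mice, and 6 and 0 against polyI:C spleen, where 4.92%, 8.71% and 16.7% of all genes were higher in thymus; no test of the list was run. Asns, the asparagine synthetase gene, was higher in thymus by 3.25 among CCR7- cells (adjusted p = 8.18e-08; limma), by 1.93 among untreated CCR7+ cells and by 1.48 against polyI:C spleen, and each call held in the 26 alternatives. Slc7a5, which encodes an amino acid transporter subunit, was higher by 1.40, 1.38 and 0.91, with the same stability. Trib3, a pseudokinase induced by ATF4 and CHOP, was higher by 2.14 among CCR7- cells and by 0.85 among untreated CCR7+ cells. Against polyI:C spleen it was not called (-0.065, adjusted p = 0.801; limma). T cell and thymocyte markers were also higher in thymus in these comparisons (3, 6 and 6 of 8 called), and 1 was lower against polyI:C spleen. The medians of the list were 0.55, 1.38 and 1.67, and Rag1 was the highest of it at 3.64, 6.29 and 6.41. The part of these markers in the values was not tested. These pairs were picked after their values were seen, and any batch that separates the tissues was not tested.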
